A study of Homo sapiens with 12 samples.

Results

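The comparison described here is the response of osimertinib-tolerant H1975 cells to SK-216, measured across the whole transcriptome. Its members are the 6 arrays of H1975 cells among the 12 arrays of the series, chosen by their titles: 3 arrays of tolerant cells (the tolerant arrays) and 3 arrays of such cells after SK-216 (the SK-216 arrays). All 21448 probe sets of the array were tested, and the other 6 arrays come from PC-9 cells treated in the same 2 ways. H1975 and PC-9 are human lung adenocarcinoma lines driven by mutant epidermal growth factor receptor, and osimertinib is a kinase inhibitor directed at the mutant receptor.

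Both H1975 groups had been kept in 0.5 µM osimertinib, and the cells alive on day 8, after 1 week, were taken as tolerant. The SK-216 group then received 100 µM SK-216, which the labels give as a code name, and the cells alive after 48 h were collected, so both groups are survivors. The labels leave 2 points unsettled. Titles, descriptions and the treatment text call the cells given SK-216 tolerant, whereas their source name calls the starting cells naive, and it is not stated whether osimertinib stayed in the medium during SK-216. No tolerant cells collected 48 h later without SK-216 are described, so the effects of SK-216 and of the added time cannot be told apart. Nothing says that the 3 replicates of a group came from separate cultures, and the p-values may then reflect technical spread between arrays alone.

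Drug-tolerant cells are the small share of a cancer cell population that outlives a targeted drug without a new resistance mutation. Such cells often proliferate slowly, and signalling through other receptors, stress pathways, inflammatory transcription factors and changes of epithelial state have all been described in them. Inhibition of the epidermal growth factor receptor lowers output of the ERK kinase pathway, which in epithelial tumour cells controls cyclin D1, ETS factors and AP-1 factors. In lung epithelium and its tumours the same cells also secrete chemokines, complement components, S100 proteins and protease inhibitors of the airway surface.

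Values are log2 signals, on which 1 unit is a doubling, and a change is the mean of the SK-216 arrays minus that of the tolerant arrays, given ± its standard error from limma, with 3 arrays per group. The 6 array profiles were alike across probe sets, with r between 0.9949 and 0.9953 among tolerant arrays, 0.9938 and 0.9942 among SK-216 arrays, and 0.9919 and 0.9933 between the groups, and no array stood apart. Olfactory receptor genes, which lung cells hardly express, gave a yardstick for unexpressed genes: the 95th percentile of their 348 probe sets was 5.01, called the olfactory level below. Of 13 lung epithelial markers 11 lay above it in at least 1 group, led by KRT8, keratin 8, at 16.13, and their summed log2 signal was 118.9 to 122.0 on tolerant arrays and 117.5 to 120.2 on SK-216 arrays. NKX2-1, the transcription factor of lung lineage, lay near that level, with tolerant arrays at 5.46, 5.20 and 4.64 and SK-216 arrays at 4.65, 5.03 and 4.88. Markers of leukocytes, endothelium and fibroblasts lay above that level for 9 of 19, 7 of 11 and 4 of 10 genes, with CD68, EGFL7 and COL1A2 the highest. Their summed signals overlapped between the groups (101.2 to 103.5 against 101.3 to 105.7 for leukocytes, 56.7 to 58.6 against 55.6 to 58.0 for endothelium, 54.7 to 55.5 against 54.0 to 55.6 for fibroblasts), and their part in the changes below was not tested. As in any bulk sample, fewer cells expressing a gene and less RNA per cell cannot be told apart.

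SK-216 was followed by more decreases than increases. At an adjusted p below 0.05, 814 probe sets were called, 3.8% of those tested: 309 rose (1.44%) and 505 fell (2.35%). Most changes were modest. The median size was 0.67 among those that rose and 0.71 among those that fell, 154 reached 1, and 6 increases and 10 decreases reached 2. Of the 309 increases 279, and of the 505 decreases 461, were on neither the interferon response list nor the ATF4 target list, and the account below concerns these. The interferon list holds 83 genes and the ATF4 list 53. Neither need include every target, so a gene outside them may still be an interferon or ATF4 target. Calls concentrated in well-expressed genes, with 447 in the brightest and 18 in the dimmest of 4 equal bins by mean signal. Arrays of the groups did not overlap for 304 of the 309 increases and 494 of the 505 decreases, against 8.95% of all probe sets with the SK-216 arrays all higher and 9.56% with them all lower. For the 25 sharpest changes in each direction and for called genes ranked within lists, no overlap was a condition of choice. Where stated for them below, it is a description and adds no support. Without tolerant array 1 the decreases numbered 332, and 370 of the 814 calls held in each of the 12 fits that left out 1 array.

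**Figure D1:**
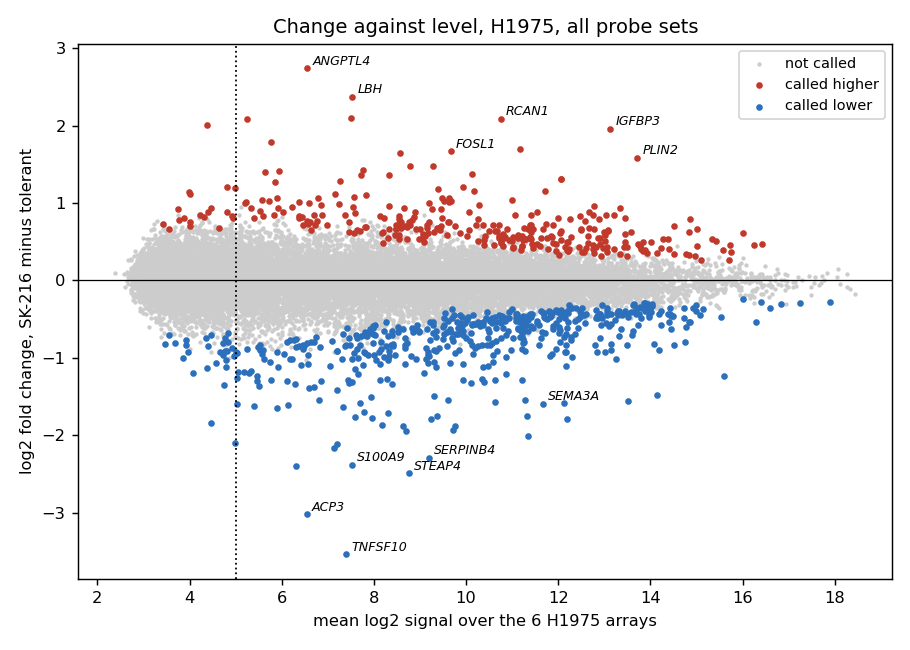
Change after SK-216 (SK-216 minus tolerant, log2) against mean log2 signal over the 6 H1975 arrays, 1 point per probe set, with the 309 increases in red, the 505 decreases in blue and the olfactory level of 5.01 as a dotted line. Uncalled points narrow with brightness, and ANGPTL4 (2.74) and TNFSF10 (-3.54), a gene of the interferon list, lie at the ends.

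The sharpest increase outside the interferon and ATF4 lists was that of a secreted protein. ANGPTL4, a secreted inhibitor of lipoprotein lipase, lay at 5.12, 5.35 and 5.06 on tolerant arrays, just above the olfactory level, and at 7.90, 8.01 and 7.84 on SK-216 arrays. The SK-216 arrays were all higher, far beyond the spread of either group, and the change was 2.74 ± 0.21 (adjusted p = 7.08e-09). IGFBP3, a binding protein of insulin-like growth factors, started high, at 12.20, 12.26 and 11.98, and reached 14.05, 14.27 and 13.99, a change of 1.96 ± 0.09 with the smallest adjusted p of all probe sets (1.32e-12). It was the 1 call among 18 probe sets of the insulin-like growth factor system. Without tolerant array 2 that list also had 2 decreases, without SK-216 array 2 it had 2 increases and 1 decrease, and without SK-216 array 3 it had 1 decrease beside IGFBP3. On the list of secreted growth factors 4 of 46 rose and 1 fell, with a median change of 0.04 against 0.01 over all probe sets. Beside ANGPTL4 the increases were GDF15, a stress-induced ligand, at 0.97 ± 0.17, STC2, stanniocalcin 2, at 0.79 ± 0.08, and VEGFA at 0.62 ± 0.10, and these 3 are also ATF4 list genes. CSF1, the macrophage growth factor, was the decrease at -0.63 ± 0.11.

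A BMP ligand and an extracellular BMP-binding protein were among the 10 sharpest decreases outside those lists. BMP4, a ligand of the BMP branch of the TGF-beta superfamily, lay at 7.90, 7.73 and 9.12 on tolerant arrays and at 6.48, 6.44 and 5.50 on SK-216 arrays. Tolerant array 3 was the highest of its group, SK-216 array 3 was the lowest of all, and the groups were apart by a change of -2.11 ± 0.26 (adjusted p = 1.2e-05). MGP, matrix Gla protein, an extracellular protein that binds BMPs, fell from 7.53, 7.05 and 7.97 to 5.19, 5.50 and 4.66, close to the olfactory level, a change of -2.40 ± 0.25. SMAD6, an inhibitory SMAD, changed by -1.31 ± 0.27 and ID2, a transcriptional target of BMPs, by -0.90 ± 0.22 (a call that ended without tolerant array 3 or SK-216 array 1 or 3, highest adjusted p = 0.14), whereas ID1 (-0.15 ± 0.18) and SMAD7 (0.29 ± 0.16) were not called. In all 6 of 36 probe sets of BMP and activin signalling fell and 1 rose, with a median of 0.02. Without SK-216 array 1 only 3 of the 6 decreases were called, and the same number, BMP4, MGP and SMAD6, held in all 12 fits that left out 1 array, whereas the increase ended in 6 of them. Among 49 Wnt pathway probe sets 2 fell, neither of which held in all 12 such fits, and the count was 1 without tolerant array 1 or 3 or any 1 of the SK-216 arrays. Among 28 Notch pathway probe sets limma called 0, with 2 at an unadjusted p below 0.05.

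Several chemokines fell. CXCL6, a neutrophil chemokine, lay at 9.37, 9.53 and 10.14 on tolerant arrays and at 7.81, 7.87 and 7.51 on SK-216 arrays, a change of -1.95 ± 0.20 with no overlap. CXCL1 changed by -1.28 ± 0.20, CCL2, a monocyte chemokine, by -1.01 ± 0.17, and CXCL5 by -0.84 ± 0.18. Of 34 chemokine and interleukin probe sets 6 fell, 1 rose and 27 did not pass, with a median of -0.07. The increase was that of IL6, a cytokine that induces acute phase proteins, from 13.21, 13.29 and 13.32 to 13.82, 13.88 and 13.97, a change of 0.62 ± 0.10 (adjusted p = 0.000348). SAA1, an acute phase protein that IL6 is known to induce, fell from 15.01, 14.68 and 14.95 to 13.51, 13.48 and 13.22, a change of -1.48 ± 0.11 (adjusted p = 2.77e-09). The SK-216 arrays were all above the tolerant ones for IL6 and all below for SAA1.

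On the list of acute phase, NF-kB and innate defence genes 12 of 42 fell (28.6%) and 2 rose, with a median of -0.15, and 10 of the decreases held in all 12 fits that left out 1 array. Complement components were among the decreases: CFB, complement factor B, at -0.83 ± 0.09, C1S at -0.79 ± 0.09 and C1R, its partner protease, at -1.0 ± 0.20. NFKBIA, the NF-kB inhibitor that NF-kB itself induces, changed by -0.55 ± 0.09, and TNFAIP2 by -0.89 ± 0.10. SLPI, an antiprotease of airway secretions, fell from 12.19, 11.58 and 12.39 to 10.42, 10.79 and 10.30, a change of -1.55 ± 0.16. The increases were those of 2 iron-binding defence proteins. LCN2, lipocalin 2, rose from 9.83, 9.55 and 10.22 to 10.68, 10.61 and 10.68, a change of 0.79 ± 0.12. LTF, lactoferrin, rose from 6.90, 6.55 and 6.35 to 7.74, 7.74 and 7.66, a change of 1.11 ± 0.23 (adjusted p = 0.00537). The SK-216 arrays lay close together and above all tolerant arrays for both.

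Of 19 S100 genes, which encode small calcium-binding proteins, 5 fell and none rose, and all 5 held in the 12 fits that left out 1 array. S100A9 lay at 8.76, 8.60 and 8.76 on tolerant arrays and at 6.40, 6.66 and 5.93 on SK-216 arrays (change -2.38 ± 0.19). S100A8, its partner in calprotectin, fell from 5.88, 4.99 and 5.25 to 3.16, 3.30 and 4.15, which is below the olfactory level (change -1.84 ± 0.26). Neither gene's groups overlapped. S100A10, the annexin A2 partner at the cell surface, changed by -0.79 ± 0.10, S100A6 by -0.71 ± 0.11 and S100A3 by -1.29 ± 0.22. S100A4, at -0.88 ± 0.27, did not pass (adjusted p = 0.0752).

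**Figure D2:**
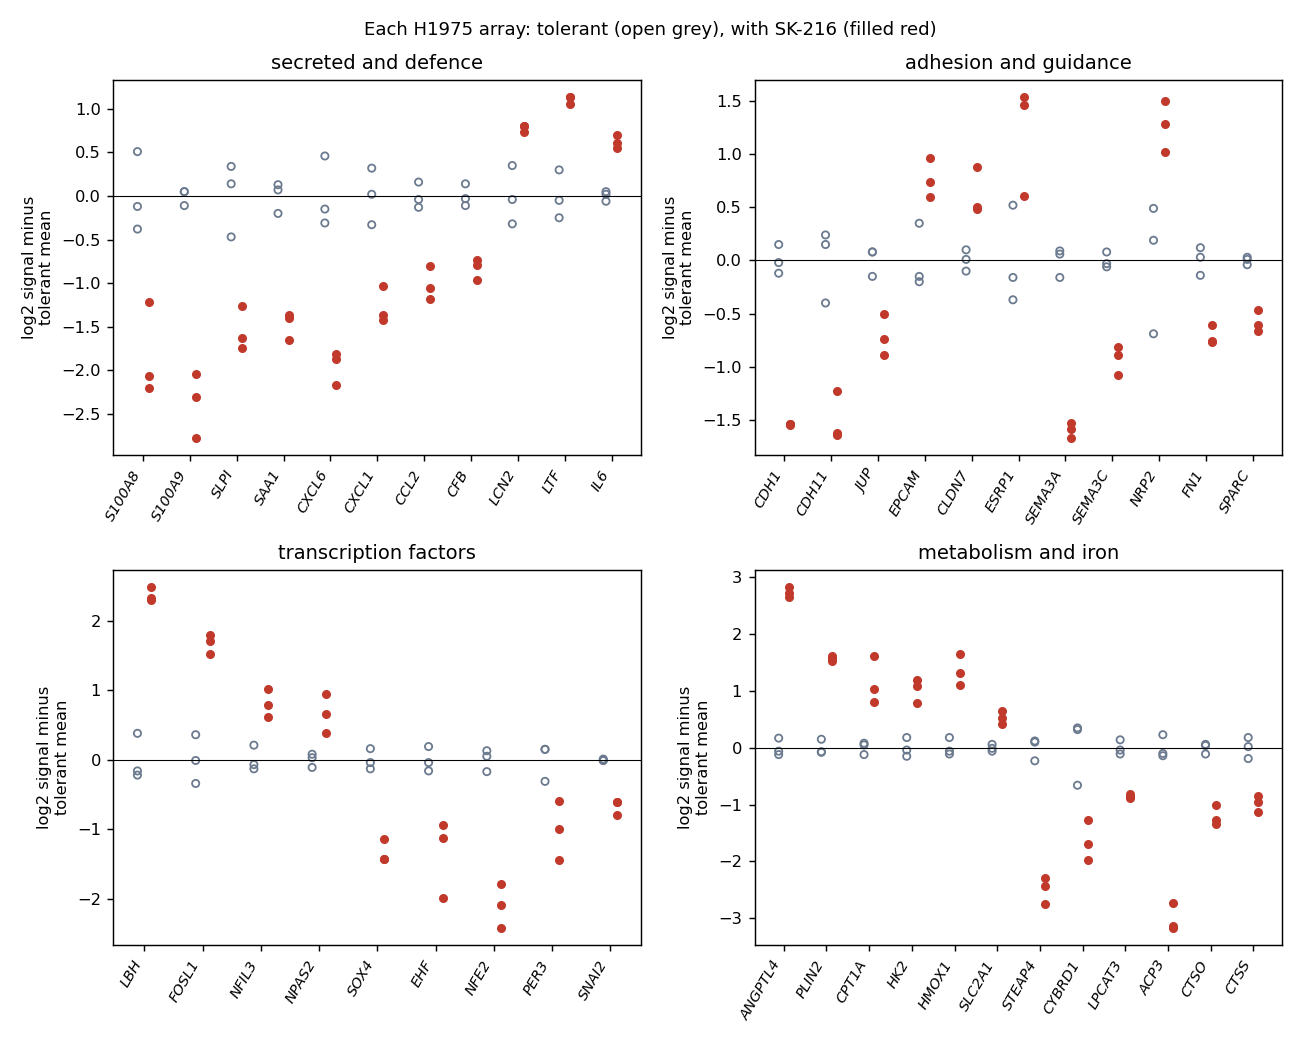
Log2 signal of each H1975 array minus the mean of the 3 tolerant arrays, for genes of 4 roles, with tolerant arrays as open grey circles and SK-216 arrays as filled red circles. In the first panel the SK-216 arrays of 8 genes lie below the tolerant arrays and those of LCN2, LTF and IL6 lie above, and in the second panel ESRP1 has 1 SK-216 array (4.82) close to the highest tolerant array (4.73).

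Protease inhibitors included a pair of neighbouring decreases. SERPINB3 and SERPINB4, inhibitors of cysteine and serine proteases known as squamous cell carcinoma antigens, fell from 8.09, 8.23 and 8.36 to 6.12, 6.48 and 5.57 (change -2.17 ± 0.26) and from 10.25, 10.30 and 10.46 to 8.28, 8.00 and 7.87 (change -2.29 ± 0.19). The groups did not overlap for either. These are near-identical paralogs whose probes may share signal, so they count as uncertain separately. Their promoters are near-identical too. The windows from 250 bases before to 50 bases after the transcription start, from RefSeq on build GRCh38.p14, share 296 of 300 bases without gaps. They lie on the minus strand at chr18:63661844-63662143 for SERPINB3 and chr18:63644207-63644506 for SERPINB4, and are shown because the members move together, with the 4 differing positions in capitals.
SERPINB3: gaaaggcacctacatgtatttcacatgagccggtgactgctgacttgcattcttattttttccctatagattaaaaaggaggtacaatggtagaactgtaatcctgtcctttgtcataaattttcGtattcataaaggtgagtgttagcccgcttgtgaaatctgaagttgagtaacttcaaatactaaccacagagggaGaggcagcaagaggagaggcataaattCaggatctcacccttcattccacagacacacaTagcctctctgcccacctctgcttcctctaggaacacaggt
SERPINB4: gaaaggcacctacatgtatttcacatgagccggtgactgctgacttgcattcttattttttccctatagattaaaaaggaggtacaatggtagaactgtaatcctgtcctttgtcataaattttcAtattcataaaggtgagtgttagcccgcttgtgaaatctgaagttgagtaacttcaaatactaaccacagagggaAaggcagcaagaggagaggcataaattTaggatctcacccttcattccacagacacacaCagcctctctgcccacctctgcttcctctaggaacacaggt

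In all 5 of 36 protease inhibitor probe sets fell and 1 rose. The increase ended without tolerant array 2 or 3, SK-216 array 1, tolerant PC-9 array 3 or SK-216 PC-9 array 1. TFPI, the tissue factor pathway inhibitor, changed by -0.65 ± 0.10, and F3, tissue factor itself, by 0.56 ± 0.10, so the initiator of coagulation rose as its inhibitor fell. SERPINH1, a collagen chaperone, changed by -0.45 ± 0.08, a call that ended without the variance trend (adjusted p = 0.0744). Extracellular proteases had 6 decreases and 1 increase among 50 probe sets, of which PLAU, urokinase, held in all 12 fits that left out 1 array (11.55, 11.55 and 11.65 against 10.71, 10.95 and 11.15, change -0.65 ± 0.12). Without tolerant array 1 or SK-216 array 1 the list had 2 decreases, and without tolerant array 3 it had 3, while its increase ended in 8 of the 12 fits that left out 1 array. PLAUR, the urokinase receptor, was at -0.02 ± 0.15.

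Guidance genes at the cell surface changed in both directions. SEMA3A, a secreted repellent of axons and endothelial cells, lay at 12.30, 12.52 and 12.55 on tolerant arrays and at 10.79, 10.93 and 10.87 on SK-216 arrays, a change of -1.59 ± 0.11 (adjusted p = 2.3e-09). SEMA3C changed by -0.92 ± 0.11. SEMA7A, a membrane-anchored semaphorin, rose from 6.10, 6.49 and 5.91 to 6.80, 7.02 and 6.99 (0.77 ± 0.19), a call that ended without tolerant array 1 or 3, without SK-216 array 2 or 3 (highest adjusted p = 0.131) and without the variance trend (0.0521). NRP2, neuropilin 2, a coreceptor of class 3 semaphorins and of vascular growth factors, rose from 5.70, 4.52 and 5.40 to 6.49, 6.23 and 6.71 (change 1.27 ± 0.26, adjusted p = 0.00351), with tolerant array 2 below the olfactory level. NRP1, the coreceptor of SEMA3A, changed by -0.65 ± 0.16, a call that ended without tolerant array 1 or 3 or without SK-216 array 1 or 3 (highest adjusted p = 0.106). The list of ephrins, semaphorins and guidance receptors had 2 increases and 5 decreases among 46 probe sets, with a median of -0.06. Leaving out any 1 of the 6 H1975 arrays left 2 or 3 of the 5 decreases, and SEMA3A and SEMA3C held in all 12 such fits.

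Among G protein-coupled receptors ADORA2B, the low-affinity adenosine receptor, rose from 8.87, 9.02 and 8.94 to 9.70, 10.37 and 9.97 (change 1.07 ± 0.19). F2RL2, a protease-activated receptor, changed by 0.77 ± 0.16, a call that ended when the H1975 arrays were fitted alone (adjusted p = 0.0519). ADGRG1, an adhesion receptor, fell (-0.85 ± 0.13). Outside that list GPER1, a membrane receptor for oestrogens, changed by -1.50 ± 0.23, and MCHR1, the receptor of melanin-concentrating hormone, by -1.62 ± 0.25, ending at 4.40, 4.57 and 4.79, below the olfactory level. IFNGR1, a chain of the interferon gamma receptor, lay at 13.60, 13.51 and 13.67 on tolerant arrays and at 12.89, 12.65 and 12.54 on SK-216 arrays, a change of -0.90 ± 0.11. It was 1 of 2 decreases among 34 cytokine receptor probe sets, and the 1 left without tolerant array 2 or SK-216 array 1.

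Receptor tyrosine kinases had single calls. On the list of the epidermal growth factor receptor family, its ligands and feedback genes 1 of 18 probe sets rose (5.56%) and none fell. The shares of all probe sets were 1.44% and 2.35%. Without tolerant PC-9 array 1 that list had 2 increases, and without tolerant array 1 it had 1 decrease. EGFR, the target of osimertinib, lay at 10.72, 10.77 and 10.50 on tolerant arrays and at 11.15, 11.05 and 11.36 on SK-216 arrays, a change of 0.52 ± 0.12 (adjusted p = 0.0141). The groups did not overlap, but the call ended without tolerant array 3 or SK-216 array 3 (highest adjusted p = 0.0939) and without the variance trend (0.099). ERBB3 (0.43 ± 0.16), MET (0.18 ± 0.08) and AXL (0.03 ± 0.15), receptors known to bypass the epidermal growth factor receptor, were not called. Among 31 probe sets of other receptor tyrosine kinases 1 fell (3.23%) and none rose. The decrease ended without tolerant or SK-216 array 1 or 3, and 1 increase was called without SK-216 array 3 or SK-216 PC-9 array 2.

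Genes downstream of ERK rose on 7 of 26 probe sets (26.9%) and none fell, with a median of 0.29 against 0.01 over all probe sets. FOSL1, an AP-1 subunit that ERK stabilises and induces, lay at 8.49, 8.82 and 9.19 on tolerant arrays and at 10.35, 10.54 and 10.62 on SK-216 arrays (change 1.67 ± 0.16). The ETS factor ETV5 went from 9.06, 8.87 and 9.09 to 10.01, 9.98 and 10.12 (1.03 ± 0.14), and CCND1, cyclin D1, from 11.84, 12.08 and 11.69 to 12.62, 12.64 and 12.73 (0.79 ± 0.11). IER3, an immediate early gene, rose by 0.61 ± 0.07 from 15.70, 15.69 and 15.70. None of these overlapped between the groups, as their choice required, and these 4 held in all 12 fits that left out 1 array. The other increases were DUSP4, SPRY1 and MYC, at 0.68 ± 0.15, 0.65 ± 0.17 and 0.37 ± 0.10, whose calls each ended in some of those fits, and without tolerant array 1 or SK-216 array 1 the list had 4 calls. DUSP6, the ERK phosphatase (0.17 ± 0.20), and EGR1, an immediate early factor (-0.39 ± 0.16), were not called.

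Further signalling genes were among the sharpest changes. DUSP15, a dual specificity phosphatase, went from 6.63, 6.39 and 6.36 to 8.61, 8.53 and 8.55, a change of 2.10 ± 0.24 with the groups far apart. With DUSP4 it made 2 increases among 22 dual specificity phosphatase probe sets, and it was the 1 left without tolerant array 1 or SK-216 array 1. RCAN1, an inhibitor of calcineurin that calcium and NFAT signalling induce, went from 9.83, 9.59 and 9.70 to 11.78, 11.71 and 11.89 (2.09 ± 0.13, adjusted p = 1.91e-10). The calcineurin and NFAT list had 2 increases and 1 decrease among 18 probe sets, of which RCAN1 held in all 12 fits that left out 1 array. STK32A, a little-studied kinase, started at 3.66, 3.86 and 5.09, around the olfactory level, and reached 6.07, 6.70 and 6.12 (2.09 ± 0.31). Tolerant array 3 stood above the others of its group, and still below all SK-216 arrays. TRAF1, an adaptor of TNF receptors, rose by 1.18 ± 0.18 and RRAD, a small GTPase of muscle and other tissues, fell by 1.78 on the log2 scale (standard error 0.30).

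Transcription factors split. LBH, a transcriptional cofactor of limb and heart development, lay at 6.12, 6.18 and 6.72 on tolerant arrays and at 8.82, 8.67 and 8.63 on SK-216 arrays (2.37 ± 0.18, adjusted p = 7.08e-09), the second-ranked increase outside the interferon and ATF4 lists. NFE2, a bZIP factor of megakaryocytes and erythroid cells, went from 6.08, 5.86 and 6.16 to 3.94, 3.61 and 4.25, so it ended below the olfactory level (-2.10 ± 0.21). SOX4, an HMG-box factor of progenitor and mesenchymal states, fell from 10.94, 10.65 and 10.74 to 9.36, 9.64 and 9.35 (-1.33 ± 0.12). EHF, an epithelial ETS factor, fell from 6.93, 7.16 and 6.81 to 4.99, 6.04 and 5.84 (-1.34 ± 0.19), with SK-216 array 1 the lowest. Of 47 probe sets of lineage and developmental factors 4 rose and 4 fell, and without tolerant array 1 the increases numbered 2. Clock genes were also split, with 3 of 20 up and 3 down: NFIL3 (0.80 ± 0.13) and NPAS2, a partner of BMAL1 (0.66 ± 0.13), rose, and PER3, a repressor of the clock (-1.01 ± 0.21), fell. Without any 1 of the tolerant arrays, or without SK-216 array 2, PER3 was the 1 decrease called, and the labels do not give the time of day of harvest.

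Genes of lipid storage, oxidation and synthesis were among the increases. PLIN2, the coat protein of lipid droplets, went from 12.85, 12.86 and 13.08 to 14.46, 14.51 and 14.55 (1.58 ± 0.21), and CPT1A, the carnitine transferase of mitochondrial fatty acid import, from 11.02, 11.22 and 11.19 to 12.18, 11.94 and 12.76 (1.15 ± 0.16). These 2 and ANGPTL4 are textbook targets of the PPAR receptors, whose list had 4 increases and 2 decreases among 39 probe sets, with 1 decrease holding in all 12 fits that left out 1 array. Genes of cholesterol synthesis and uptake rose on 7 of 30 probe sets and 2 genes of the list fell, with a median of 0.21. Without the variance trend 3 increases were called. MSMO1 (0.81 ± 0.09), DHCR7, the last enzyme of the pathway (0.71 ± 0.10), and HMGCS1, an early one (0.55 ± 0.10), were among the 4 increases that held in all 12 fits that left out 1 array, and 4 is also the count without tolerant array 2 or SK-216 array 2. The decreases were targets of the liver X receptors: LPCAT3, which remodels phospholipids, went from 10.65, 10.58 and 10.83 to 9.81, 9.82 and 9.88 (-0.85 ± 0.14), and ABCA1, the cholesterol exporter, changed by -1.0 ± 0.23, a call that ended without tolerant array 1 (adjusted p = 0.123) or SK-216 array 1 (0.072). SCD, a fatty acid desaturase, changed by 0.83 ± 0.16, a call that ended without the variance trend (adjusted p = 0.0552), and FASN, fatty acid synthase, by 0.39 ± 0.17, which did not pass.

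Hypoxia-inducible factor targets rose on 11 of 33 probe sets (33.3%) and none fell, with a median of 0.28, and 9 of the increases held in all 12 fits that left out 1 array. Of the 11, 3 are also on the ATF4 list. HK2, hexokinase 2, went from 9.12, 9.34 and 9.01 to 10.36, 9.94 and 10.24 (1.02 ± 0.20), NDRG1 from 12.72, 13.05 and 12.83 to 13.76, 13.72 and 13.94 (0.94 ± 0.13), and SLC2A1, the glucose transporter, from 13.95 to 14.07 on tolerant arrays to 14.42 to 14.66 on SK-216 arrays (0.53 ± 0.08). MXI1, a MYC antagonist, rose by 0.68 ± 0.12. HK2 and SLC2A1 were also the 2 calls among 29 probe sets of glycolysis and the pentose phosphate pathway, with LDHA at -0.02 ± 0.07. That list had 4 increases without tolerant PC-9 array 1 or SK-216 PC-9 array 3, and 1 decrease without tolerant array 3 or SK-216 array 1. Genes of the tricarboxylic acid cycle and oxidative phosphorylation had 3 decreases among 61 probe sets and a median of -0.14, and none of them was called without tolerant array 1 or SK-216 array 3, and 1 without tolerant array 3 or SK-216 array 1.

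Genes of iron handling and ferroptosis defence fell on 6 of 27 probe sets and 1 rose, with a median of -0.20. STEAP4, a reductase of iron and copper induced by inflammatory cytokines, lay at 10.13, 10.11 and 9.78 on tolerant arrays and at 7.72, 7.57 and 7.25 on SK-216 arrays (-2.49 ± 0.14, adjusted p = 3.25e-11). CYBRD1, a second ferric reductase, fell from 6.07, 7.05 and 7.08 to 5.46, 5.03 and 4.76 (-1.65 ± 0.20), with tolerant array 1 the lowest of its group. HMOX1, the haem-degrading enzyme that releases iron, rose from 7.54, 7.83 and 7.59 to 8.97, 8.75 and 9.31 (1.36 ± 0.24). STEAP4, CYBRD1 and LPCAT3 held in all 12 fits that left out 1 array, and without tolerant array 3 the decreases numbered 3. Without tolerant PC-9 array 1 or 2 there were 2 increases. TFRC, the transferrin receptor (0.02 ± 0.10), and GPX4, the lipid peroxide reductase (-0.28 ± 0.10), were not called.

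Redox and xenobiotic genes did not move as 1 group. On the NRF2 list 3 of 29 probe sets rose and 2 fell: HMOX1 rose, as did SLC7A11, which is also on the ATF4 list, while ABCC3, a drug exporter (-0.74 ± 0.12), and AKR1C3, a steroid and prostaglandin reductase (-0.83 ± 0.15), fell. The third increase of the list did not hold in all 12 fits that left out 1 array. NQO1, a standard NRF2 target, was at -0.02 ± 0.09. CYP1A1, the classic target of the aryl hydrocarbon receptor, went from 6.77, 6.61 and 6.51 to 8.30, 7.18 and 8.28 (1.29 ± 0.25), with SK-216 array 2 nearest to the tolerant arrays. TIPARP, another such target, went from 12.70, 12.74 and 12.41 to 13.41, 13.40 and 13.56 (0.84 ± 0.09), whereas CYP1B1 was at -0.01 ± 0.08.

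In the endoplasmic reticulum, 12 of 42 probe sets of chaperones and the secretory pathway rose (28.6%) and none fell, with a median of 0.22. HERPUD1, a component of reticulum-associated degradation, lay at 12.74, 12.73 and 12.89 on tolerant arrays and at 13.63, 13.66 and 13.58 on SK-216 arrays (0.84 ± 0.09). DNAJB9, a cochaperone, rose by 0.85 ± 0.11 and DERL3, of the same degradation machinery, by 1.03 ± 0.20. HSPA5, the major chaperone, rose by 0.46 ± 0.07 from 16.07, 16.01 and 15.99, a call that ended without the variance trend (adjusted p = 0.0587). AGR2, a disulfide isomerase of mucus-secreting cells, rose from 3.64, 3.08 and 3.43, below the olfactory level, to 5.27, 5.27 and 5.64 (2.01 ± 0.25). XBP1, the transcription factor of the unfolded protein response, was at 0.28 ± 0.11 and did not pass. Of the 12 increases 8 held in all 12 fits that left out 1 array, and 5 were called without the variance trend.

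**Figure D3:**
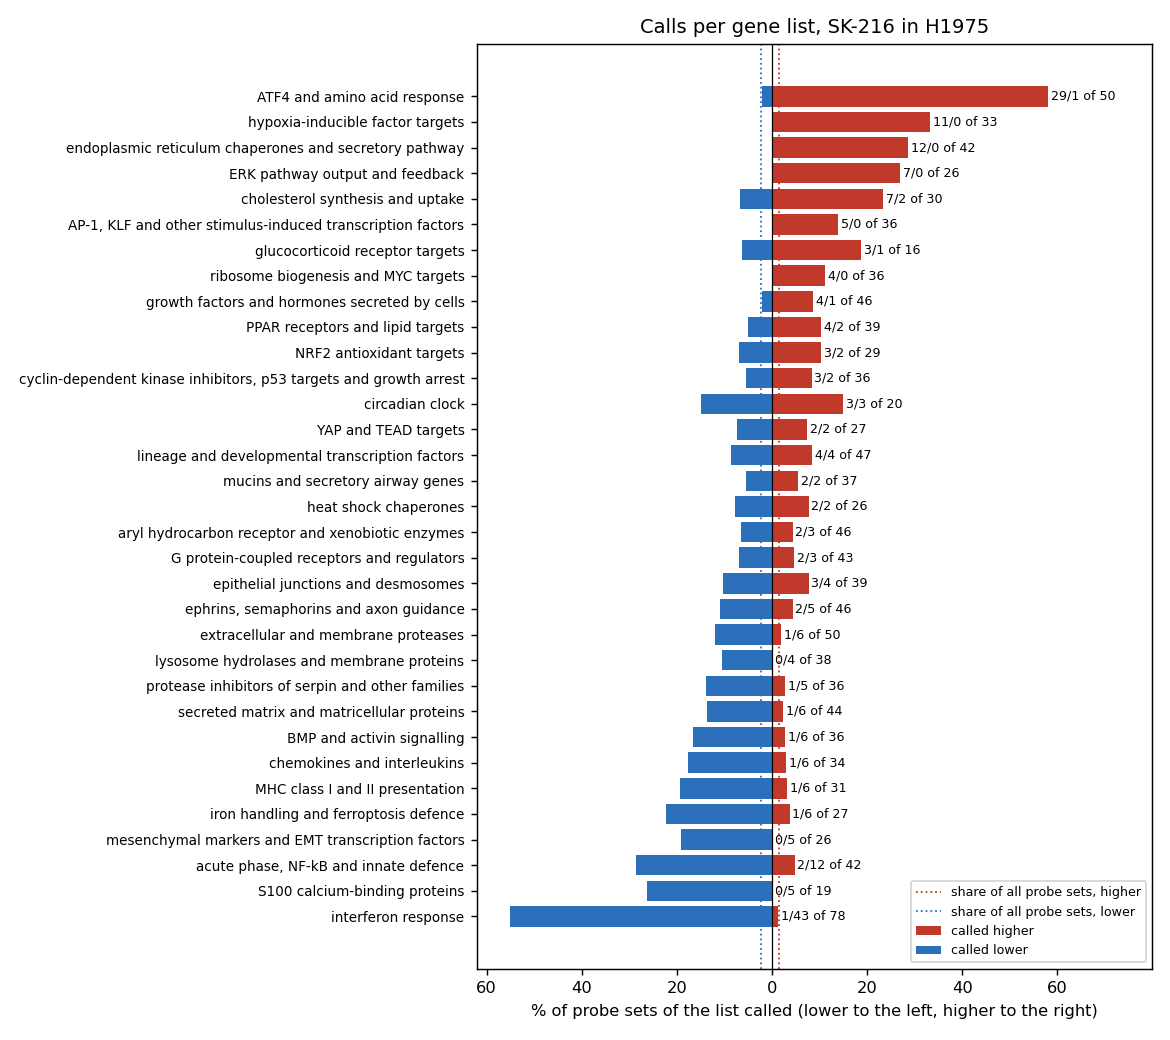
Share of each gene list's probe sets that fell (blue, to the left) or rose (red, to the right) after SK-216, for lists with at least 4 calls (1 such list is not shown), with rises/falls and list size printed beside each bar and the shares of all probe sets (1.44% and 2.35%) as dotted lines. The hypoxia (11/0 of 33), endoplasmic reticulum (12/0 of 42) and ERK output (7/0 of 26) lists have increases and no decrease, and the S100 (0/5 of 19) and mesenchymal (0/5 of 26) lists the reverse.

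Acid hydrolases were among the decreases. ACP3, prostatic acid phosphatase, was the sharpest decrease outside the interferon list, from 8.28, 7.95 and 7.91 to 4.91, 5.31 and 4.87, around the olfactory level (-3.02 ± 0.29). CTSO and CTSS, cysteine cathepsins, fell from 11.37, 11.52 and 11.54 to 10.20, 10.48 and 10.13 (-1.21 ± 0.12) and from 8.62, 8.83 and 8.99 to 7.96, 7.85 and 7.68 (-0.98 ± 0.15). On the lysosome list 4 of 38 probe sets fell, none rose and 34 did not pass, and without the tolerant PC-9 array 1, which enters through the shared estimate of spread, 7 fell. ATP6V0D2, a subunit of the vacuolar proton pump, rose from 4.61, 5.14 and 4.88 to 6.86, 6.59 and 6.55 (1.79 ± 0.23). The catalytic subunit ATP6V1A rose by 0.37 ± 0.08, a call that ended without the variance trend (adjusted p = 0.109), and the other 17 probe sets of the pump were not called. Among 29 autophagy and 31 proteasome probe sets limma called 0, with 5 and 3 at an unadjusted p below 0.05. Each list had 1 decrease without a single array, SK-216 array 3 for autophagy and SK-216 array 2 for the proteasome.

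Adhesion genes did not move along a single axis from epithelial to mesenchymal. CDH1, the epithelial cadherin, fell from 7.73, 7.46 and 7.56 to 6.04, 6.04 and 6.03 (-1.55 ± 0.13), and CDH11, a mesenchymal cadherin, from 10.30, 9.66 and 10.21 to 8.42, 8.44 and 8.83 (-1.49 ± 0.28). JUP, plakoglobin, which links cadherins to the cytoskeleton, fell by 0.71 on the log2 scale (standard error 0.11). EPCAM rose from 8.03, 7.98 and 8.53 to 8.78, 9.14 and 8.92 (0.77 ± 0.13), and ESRP1, an epithelial splicing regulator, from 4.73, 4.05 and 3.84 to 4.82, 5.67 and 5.75 (1.21 ± 0.21), with tolerant arrays below the olfactory level. CLDN7, a tight junction protein, changed by 0.62 ± 0.13, a call that ended when the H1975 arrays were fitted alone (adjusted p = 0.0829). Of 39 junction probe sets 3 rose and 4 fell, and without tolerant array 2 or 3 the decreases numbered 2.

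On the list of mesenchymal markers and factors 5 of 26 probe sets fell and none rose, with a median of -0.04, so that the decreases were those of single genes. SNAI2, a repressor of CDH1, fell from a mean of 11.99 ± 0.01 (SD, n = 3) to 11.19, 11.39 and 11.38 (-0.67 ± 0.11), although CDH1 fell as well. FN1, fibronectin (-0.72 ± 0.12), and SPARC, a matricellular protein (-0.58 ± 0.08), fell too. VIM (0.01 ± 0.14) and ZEB1 (-0.09 ± 0.23) were not called. Among secreted matrix genes 6 of 44 fell and 1 rose, with a median of -0.20, and without tolerant array 1 or SK-216 array 1 the decreases numbered 3, and the increase ended without tolerant or SK-216 array 1 or 3. Of 30 collagen and laminin probe sets 3 fell, led by COL8A1 (-0.97 ± 0.15).

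Antigen presentation genes fell on 6 of 31 probe sets and 1 rose. None of the 6 decreases is on the interferon list, which need not include every interferon target. ERAP2, which trims peptides for class I molecules, fell from 12.58, 12.68 and 12.68 to 11.92, 11.72 and 12.11 (-0.73 ± 0.11), and TAPBPL, a peptide editor, by 0.99 on the log2 scale (standard error 0.18). The increase was that of CD274, the immune checkpoint ligand PD-L1, which is itself known as an interferon target. It went from 7.90, 7.54 and 8.01 to 8.69, 8.62 and 8.54 (0.80 ± 0.17, adjusted p = 0.00506), with no overlap.

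Cell cycle lists differed in their calls. On the G1/S and replication list 3.85% of probe sets rose and 1.92% fell, against 1.44% and 2.35% of all probe sets. Among 50 probe sets of G2/M genes limma called 0, with 6 at an unadjusted p below 0.05 and a median of -0.01, and MKI67 was at 0.04 ± 0.15 and CCNB1 at -0.15 ± 0.13. Among 52 probe sets of G1/S and replication CCND1 and E2F7 (0.89 ± 0.17) rose and E2F8 (-0.64 ± 0.14) fell, although the pair are related repressors of replication genes. GADD45A, a growth arrest gene, rose by 0.72 ± 0.14, and CDKN1A, the p21 inhibitor, was at 0.18 ± 0.16. In the BCL2 family BMF, a death-promoting BH3-only member, fell from 7.85, 8.12 and 8.15 to 6.76, 7.48 and 6.86 (-1.01 ± 0.19), whereas PMAIP1, another BH3-only member, rose from 8.24, 8.41 and 8.63 to 9.32, 9.15 and 9.16 (0.78 ± 0.20). The call of PMAIP1 ended without tolerant array 1 or 2 or SK-216 array 1 or 3 (highest adjusted p = 0.121). BID, also death-promoting, changed by -0.63 ± 0.15, a call that ended without tolerant or SK-216 array 3 (highest adjusted p = 0.131). The family had 1 increase and 2 decreases among 19 probe sets, and BCL2L11, or BIM (-0.31 ± 0.14), and MCL1 (-0.10 ± 0.09) were not called.

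The remaining genes of the top 25 in each direction fit no single list. TMEM45B (1.48 ± 0.15), ICA1 (1.42 ± 0.18), CLGN, a calnexin relative (1.40 ± 0.23), BPIFC (1.36 ± 0.21), UPP1, uridine phosphorylase (1.31 ± 0.12), CADM1, an adhesion molecule (1.21 ± 0.20), SLC35F3 (1.20 ± 0.20) and SLC9A2, a sodium-proton exchanger (1.12 ± 0.21), rose. CLGN and SLC35F3 started around or below the olfactory level and SLC9A2 lay below it in both groups. PDZK1IP1 (-1.88 ± 0.13), TMT1A (-1.88 ± 0.16), SERTAD4 (-1.71 ± 0.16), DIO2, which activates thyroid hormone (-1.64 ± 0.18), CYP4X1 (-1.61 ± 0.32), OLFML3 (-1.58 ± 0.26) and CLIC3, an intracellular chloride channel protein (-1.55 ± 0.20), fell. CYP4X1 was uneven, at 4.82, 6.20 and 4.97 on SK-216 arrays against 7.17, 6.6 and 7.06. All 50 genes kept their calls in all 12 fits that left out 1 array and under each other alternative that included them. The fit limited to probe sets above the olfactory level left out SLC9A2.

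**Figure D4:**
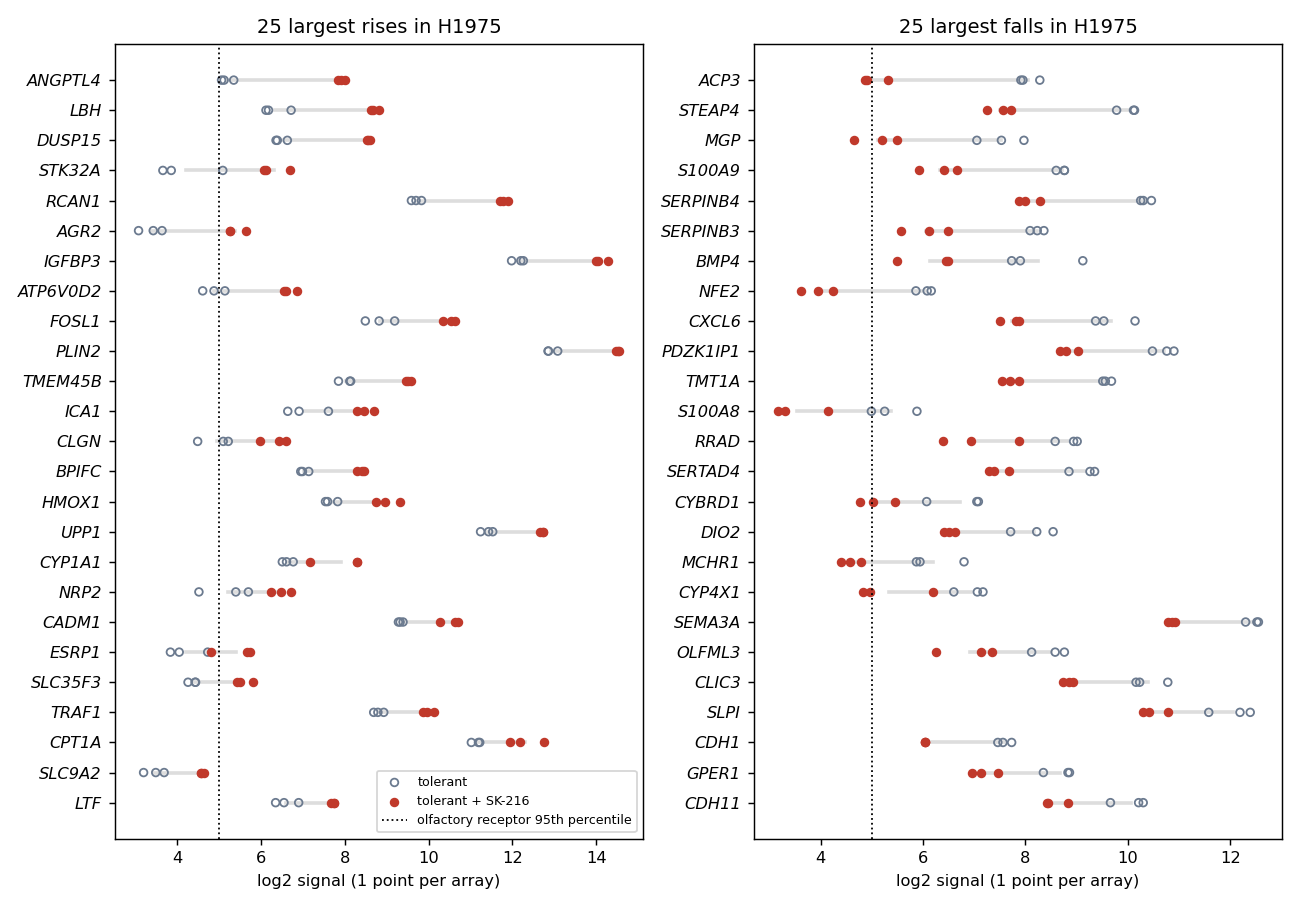
Log2 signal on each H1975 array for the 25 sharpest increases (left) and the 25 sharpest decreases (right) outside the interferon and ATF4 lists, with tolerant arrays as open grey circles, SK-216 arrays as filled red circles, grey lines joining the group means and the olfactory level of 5.01 dotted. No row overlaps between the groups, as the choice of these genes required, and several increases start and several decreases end at the olfactory level.

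Promoter sequences were searched for short motifs of transcription factors, in 20090 windows of 300 bases from RefSeq (GRCh38.p14) for 14250 of the 17687 measured genes. The 11 motifs were searched on both strands, each on its own, so that a window could count for several. The CARE element, TGATGNAA, through which ATF4 acts, was present in 7.45% of 322 windows of genes that rose and in 2.68% of all windows. Outside the ATF4 and interferon lists it was present in 5.3% of 283 windows. The interferon-stimulated element, 2 copies of GAAA with any 2 bases between them, was present in 9.33% of 525 windows of genes that fell and in 3.12% of all, and in 4.0% of 475 outside those lists. Named genes outside those lists with the first motif include HERPUD1, TRAF1 and HSPA4L, and those with the second include CFB, ERAP2, TAPBP and SGK1. Shares of the AP-1 motif, TGACTCA, were 5.9% in genes that rose, 3.43% in genes that fell and 4.05% in all windows, and of the hypoxia core, TACGTG, 4.04%, 2.67% and 3.11%. The xenobiotic element, TNGCGTG, was present in 4.35%, 4.38% and 6.31%, and the TEAD motif, ACATTCC, in 2.17%, 3.24% and 2.66%. Shares of the cyclic AMP element, TGACGTCA, were 2.17%, 0.952% and 2.27%, of the E-box TCACGTGA 0.932%, 0.762% and 1.27%, and of TATAAA 11.8%, 10.1% and 9.3%. The palindrome GTCTAGAC of SMAD factors and the NF-kB consensus were present in 0.164% and 0.179% of all windows, too few for shares of the groups. A match is a description and not a site.

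The windows below belong to the genes with the sharpest changes among those with a motif, a single listed start and a place on neither list. They show the CARE element of the increases HERPUD1 (chr16:56931892-56932191, plus strand) and TMEM154 (chr4:152679948-152680247, minus strand), and the interferon-stimulated element of the decrease LGALS9 (chr17:27630938-27631237, plus strand). Each is written along the strand of its gene, with the motif in capitals, here read as its reverse complement.
HERPUD1: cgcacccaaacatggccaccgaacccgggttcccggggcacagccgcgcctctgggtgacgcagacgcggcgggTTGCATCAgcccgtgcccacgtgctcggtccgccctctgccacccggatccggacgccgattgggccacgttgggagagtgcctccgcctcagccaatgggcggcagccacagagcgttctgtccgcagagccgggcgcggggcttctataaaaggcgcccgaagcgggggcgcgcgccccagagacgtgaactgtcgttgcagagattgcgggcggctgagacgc
TMEM154: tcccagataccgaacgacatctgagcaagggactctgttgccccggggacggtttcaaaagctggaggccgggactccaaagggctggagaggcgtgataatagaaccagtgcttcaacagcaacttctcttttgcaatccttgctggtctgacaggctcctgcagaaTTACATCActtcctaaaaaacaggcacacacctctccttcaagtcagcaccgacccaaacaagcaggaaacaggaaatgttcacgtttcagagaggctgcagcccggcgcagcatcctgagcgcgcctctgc
LGALS9: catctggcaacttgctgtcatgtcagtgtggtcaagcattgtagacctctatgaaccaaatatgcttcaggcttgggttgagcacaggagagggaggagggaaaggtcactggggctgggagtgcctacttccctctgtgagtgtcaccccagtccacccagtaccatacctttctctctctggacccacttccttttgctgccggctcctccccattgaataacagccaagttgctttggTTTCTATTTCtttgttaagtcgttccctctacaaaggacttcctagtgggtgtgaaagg
TMEM154, a membrane protein, rose from 6.84, 7.36 and 7.27 to 7.85, 7.97 and 8.25 (0.87 ± 0.18), a call that ended without tolerant array 1 (adjusted p = 0.0516). LGALS9, galectin 9, fell from 5.73, 5.64 and 5.55 to 4.57, 3.98 and 4.83, below the olfactory level (-1.18 ± 0.23). Both genes were chosen for display by their promoters, after their values were seen.

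The same treatment of PC-9 cells was used to ask whether the sharpest changes were shared. In PC-9, 0.443% of probe sets were called (0.373% higher and 0.0699% lower). Of the 309 increases of H1975, 21 were also called higher there, and of the 505 decreases 3 were called lower and 2 higher. None of the 5 sharpest increases and 5 sharpest decreases of H1975 was called in PC-9. The difference between the lines was called for all 10 by limma, against 1.42% of all probe sets (1.09% with a higher and 0.331% with a lower change in PC-9), but these genes were chosen for their change in H1975, which enters the difference. RCAN1 lay at 9.79 ± 0.18 on tolerant PC-9 arrays (mean ± SD, n = 3), close to its 9.71 ± 0.12 in H1975, and reached 9.93 ± 0.11 with SK-216 there against 11.79 ± 0.09 in H1975. S100A9 started at 8.02 ± 0.12 in PC-9 and ended at 8.06 ± 0.09, whereas STEAP4 started at 11.47 ± 0.13 and ended at 11.81 ± 0.03. These genes started well above the olfactory level in both lines. As they were chosen for their change in H1975, the difference between the lines is a description. ANGPTL4, STK32A, ACP3, MGP and SERPINB4 lay below the olfactory level, taken from the H1975 arrays, in both PC-9 groups. This limits how well a decrease of the last 3 could be measured there. SERPINB4 still went from 4.53 ± 0.09 to 3.95 ± 0.11 in PC-9 (mean ± SD), a change that was not called. Of the difference calls, that of STK32A ended without 1 array in 7 of the 12 fits (highest adjusted p = 0.113) and that of DUSP15 in 2, without tolerant PC-9 array 3 (0.0511) or SK-216 PC-9 array 3 (0.0506).

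**Figure D5:**
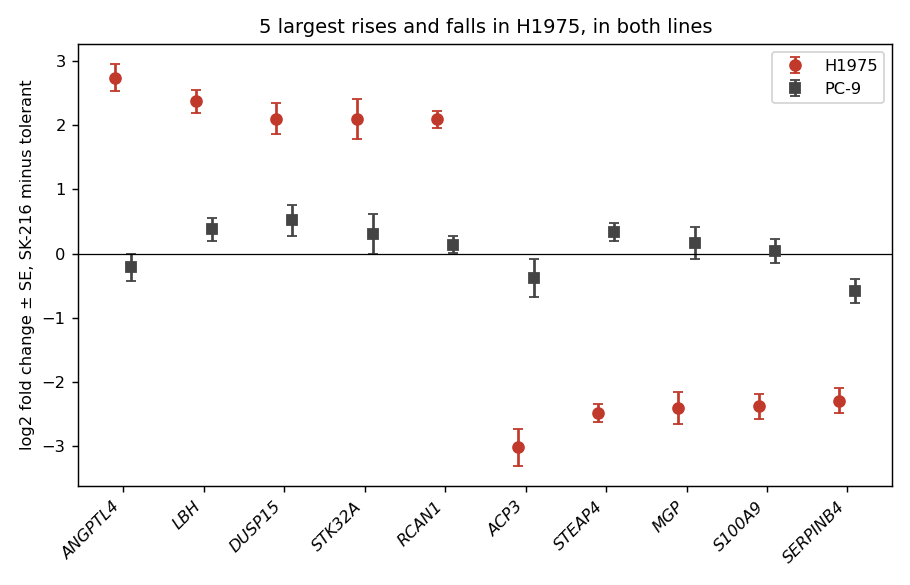
Change after SK-216 (log2, ± standard error of the fit, 3 arrays per group) in H1975 (red circles) and PC-9 (dark squares) for the 5 sharpest increases and 5 sharpest decreases of H1975. PC-9 changes lie between -0.58 and 0.52, none past the test, beside changes of 2.09 to 2.74 and -3.02 to -2.29 in H1975.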

How the data were processed

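RNA from 12 samples was measured on a whole-transcript array of 1 colour, from 250 ng of RNA each, per the labels. The authors deposited log2 signals. Per the submitters' processing notes they used Transcriptome Analysis Console; how it summarised and normalized the arrays, its version and the genome build were not given in the sources used here. Values ran from 2.19 to 18.61, with array medians of 6.56 to 6.62, and were used without further normalization. The number of arrays limits the precision.

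Group means of all 4 groups were fitted with limma 3.58.1 in R 4.3.3, using eBayes with a variance trend (8 residual degrees of freedom). Two-sided p-values received Benjamini-Hochberg adjustment over 21448 probe sets, and every adjusted p in the text comes from limma. The fit was tested on simulated data. Of the probe sets 17709 had 1 gene symbol, 0 had several and 3739 were unnamed. The names come from the platform annotation, looked up by Entrez identifier in RefSeq (GRCh38.p14). Repeated probe sets of a gene were tested separately.

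The comparison and the gene lists (59 described, with 1848 of 2039 genes measured) were chosen with earlier results of these data known. Named genes were first the 25 sharpest changes in each direction outside the interferon and ATF4 lists with no overlap between the groups. To these came up to 4 called members per list and direction, also with no overlap. Also named were all called members of lists described in depth and uncalled members of central role. The others were EGFR, ERBB2, ERBB3, MET, AXL, PLAU, PLAUR, VIM, CDH1, MKI67, CCNB1, CDKN1A and MYC. ERBB2 was not analysed here, and 1 further gene is not reported here. Other settings tried were eBayes without a trend, robust eBayes, array weights, quantile normalization, centring, filters on dim probe sets, 1 probe set per symbol, H1975 arrays alone, a replicate block, a stricter threshold and leaving out each array.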

Additional observations from a re-analysis of the deposited data

Results flagged for a closer look

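For 10 genes the change after SK-216 differed between the lines by limma's test of the difference itself (change in PC-9 minus change in H1975, log2 ± standard error). All were chosen for their change in H1975, which enters the difference, so the size of the difference is a description. Among the increases of H1975 the difference was -2.95 ± 0.30 for ANGPTL4 (adjusted p = 2.03e-06), -1.99 ± 0.26 for LBH (7.19e-05) and -1.95 ± 0.18 for RCAN1 (5.51e-07). It was -1.58 ± 0.34 for DUSP15 (0.0138) and -1.79 ± 0.43 for STK32A (0.0334), the 2 whose calls ended without the variance trend (0.0624 and 0.151) and in some fits that left out 1 array. Among the decreases of H1975 it was 2.64 ± 0.41 for ACP3 (adjusted p = 0.000746), 2.83 ± 0.20 for STEAP4 (3.32e-09), 2.57 ± 0.35 for MGP (0.00016), 2.42 ± 0.26 for S100A9 (5.61e-06) and 1.71 ± 0.27 for SERPINB4 (0.000823). ACP3, MGP and SERPINB4 lay at olfactory receptor levels in both PC-9 groups.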

How the results depend on the processing

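At an adjusted p below 0.01, 422 probe sets were called (161 higher, 261 lower), and without the variance trend 448 (172 higher, 276 lower), of which 437 were among the 814. Leaving out 1 array gave 545 calls without tolerant array 1 to 918 without tolerant PC-9 array 1, with 206 to 342 higher and 332 to 576 lower. Apart from the replicate block given below, the other settings gave between 749 calls (1 probe set per symbol) and 967 (probe sets above the olfactory level). Among them quantile normalization gave 354 higher and 469 lower. No named call changed direction, and sign changes of uncalled named genes were not counted. Of 221 named calls 146 held in all 12 fits that left out 1 array and 136 under all other settings that included them. Deviations of same-numbered arrays from their group means had r of 0.00731, -0.0912 and -0.0852. Differently numbered arrays of the 2 groups had r from -0.00925 to 0.0941. With 3 arrays per group these values cannot show whether same-numbered arrays shared a culture or a day. With the replicate number as a block, 673 probe sets were called (256 higher, 417 lower), 658 of them among the 814, with 4 residual degrees of freedom. Signals near the olfactory level limit what can be measured of dim genes, and 3 arrays per group limit the rest.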

Other observations

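The 3 genes that follow are on none of the described lists and were picked after their values were seen, so they stand for no pathway. PIK3IP1, an inhibitor of phosphoinositide 3-kinase, lay at 8.20, 7.66 and 7.83 on tolerant arrays and at 6.56, 6.41 and 6.48 on SK-216 arrays, a change of -1.41 ± 0.19 (adjusted p = 4.11e-05). DEPTOR, an inhibitory partner of mTOR, fell from 9.14, 9.30 and 9.39 to 8.11, 8.52 and 8.30 (-0.97 ± 0.21), a call that ended without SK-216 array 1 (adjusted p = 0.054). RRAGD, a Rag GTPase of amino acid sensing at the lysosome, rose from 7.04, 7.22 and 7.54 to 8.25, 8.41 and 8.44 (1.10 ± 0.21). None of the 3 overlapped between the groups.

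HIF1A, which encodes the oxygen-regulated subunit of hypoxia-inducible factor, changed by -0.47 ± 0.12, opposite to the factor's targets. The call ended without tolerant array 1 or 2 or SK-216 array 1 or 2 (highest adjusted p = 0.176) and without the variance trend (0.235).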
